A study of Mus musculus with 7 samples.

Results

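S100 proteins are small calcium-binding proteins, each built around a pair of EF-hand loops, which mostly work as dimers. When calcium binds, most of them expose a surface that grips a partner, such as an annexin, a cytoskeletal protein or an enzyme. Some are also released and act on receptors of innate immunity. In blood cells the family is best known from neutrophils and monocytes, whose cytosol is rich in the S100A8 and S100A9 heterodimer called calprotectin. The S100 members taken here are S100a1, S100a4, S100a6, S100a8, S100a9, S100a10, S100a11 and S100a13, each through every probe set that the platform annotation assigns to that gene alone. The rule gave 10 probe sets of 7 genes, out of 45101 probe sets in the table, or 7 of 18194 genes with a probe set of their own. S100a11, an annexin A1 partner, is the 1 member with no such probe set: the probe set that lists it also lists other genes, so S100a11 was not analysed here.

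Expression was measured on Affymetrix arrays in B cells isolated from spleen with a magnetic B-cell kit, and each array is taken as 1 mouse. The 3 transgenic arrays (TG) come from Eµ-miR-155 mice of the FVB strain, in which the immunoglobulin heavy chain enhancer Eµ drives the microRNA in the B lineage. The 4 wild-type arrays (WT) come from FVB mice without it. Age and sex are not given in the labels, and neither is the transgene's founder line. The microRNA is shown because it is the only element said to separate the groups, with its seed (bases 2 to 8, the part that pairs with targets) in capitals, from RefSeq, build GRCm38.p6, chr16:84714143-84714165, plus strand.
mmu-miR-155-5p: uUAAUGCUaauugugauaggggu

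Levels are log2 GCRMA values as the authors deposited them, and precision is limited by having 3 and 4 arrays. A value at or under 4 is treated as not above background, since the lowest value, 2.17, holds 35.6% to 37.0% of each array. Differences are TG minus WT from limma, with its standard error (SE) and a p adjusted over the 20994 probe sets that were above 4 on at least 3 of the 7 arrays. The B cell label was checked on 7 marker genes with a probe set of their own: all were above 4 on all 7 arrays, with a mean of 12.94 to 13.41 on TG arrays and 13.59 to 13.70 on WT arrays. The median difference of these 7 genes was -0.32, and 5 had an unadjusted p under 0.05. Fcer2a, the low-affinity IgE receptor gene, fell by 0.82 ± 0.19 (SE, limma adjusted p = 0.0451), while Cd22 (-0.27, adjusted p = 0.0744) and Cr2 (-0.54, adjusted p = 0.0896) did not pass. Markers of other cells averaged higher on TG arrays, as given beside the S100 results. Xist was at 2.22 and 2.81 on WT replicates 3 and 4, against 13.61 to 13.93 elsewhere, and the Y-linked Eif2s3y was at 9.85 and 11.10 on those 2 arrays, against 2.17 elsewhere, so sex is not balanced between the groups.

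In the TG arrays 5 of the 7 measured S100 genes rose by their brightest probe set, and the other 2 did not pass. S100a8 rose at least 52.0-fold and S100a9 at least 15.3-fold, S100a4 rose 15.4-fold, S100a6 6.21-fold and S100a1 4.75-fold, and S100a13 and S100a10 showed small differences of opposite sign. Of the 10 probe sets, 9 were above 4 on enough arrays to be tested, and the exception is a second S100a1 probe set. It was at background on every array, and the assignment of the probe set that rose to S100a1 is uncertain. S100a6 was close to the threshold and lost its call in 13 of 19 alternatives. The probe sets of S100a8 and S100a9 were tested only through their TG values, since no WT array was above 4, and so had to differ. Of the 7 other tested probe sets, 3 passed, all as higher (limma, adjusted p under 0.05). Over all tested probe sets 9.28% passed, 5.63% as higher and 3.65% as lower. The groups did not overlap in 5 of those 7, against 27.5% of all tested probe sets. Among these 5, S100a10 1439348_at was lower on TG arrays, with a highest TG value of 8.48 and a lowest WT value of 8.49. By the brightest probe set of each gene, and again without S100a8 and S100a9, the groups did not overlap in 4 of 5 S100 genes. That compares with 29.9% of all tested genes, of which 10.7% passed. The median difference over all tested probe sets was -0.04.

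**Figure D1:**
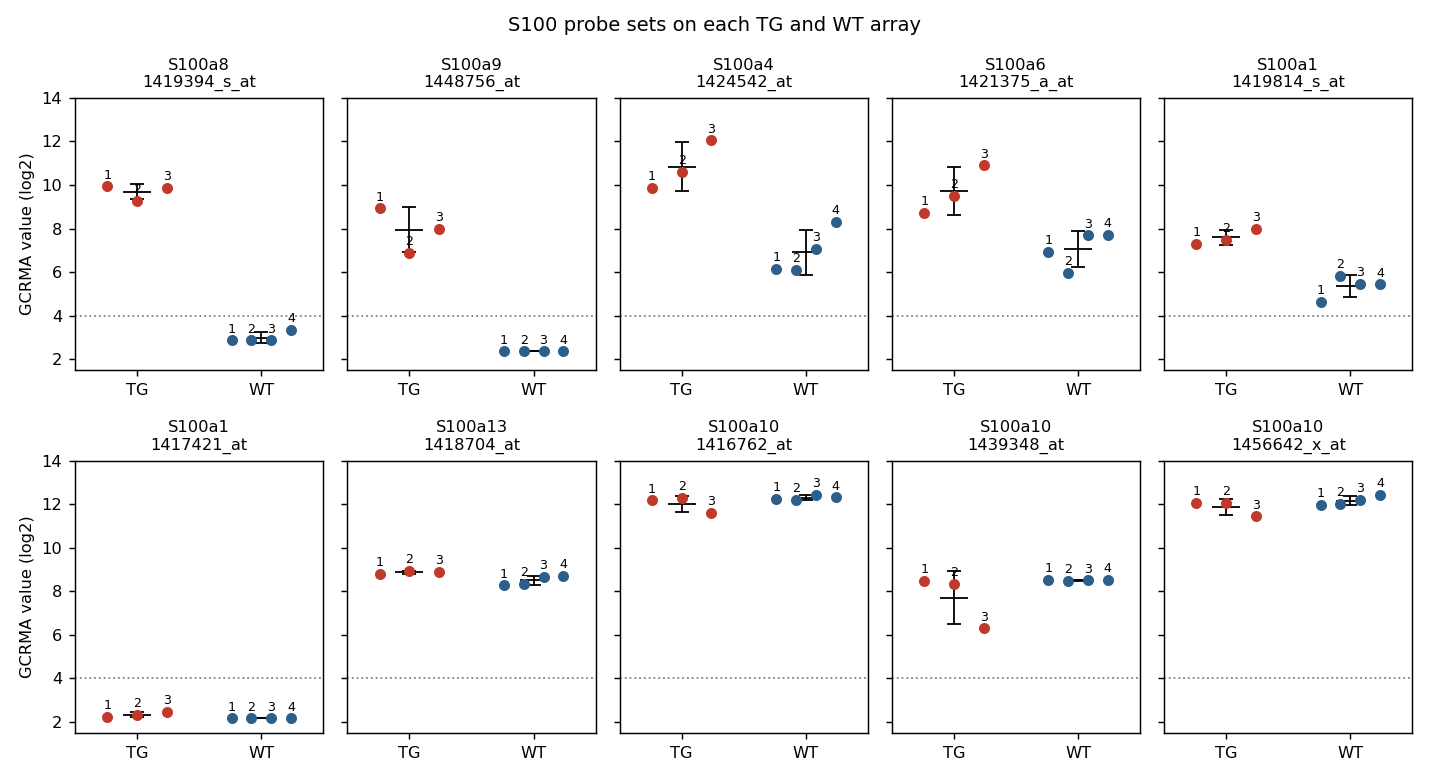
GCRMA value (log2, vertical axis) of the 10 S100 probe sets on each TG array (left, red) and WT array (right, blue), numbered by replicate, with the group mean and SD as black bars and the level of 4 dotted. S100a8 and S100a9 lie under 4 on all WT arrays, S100a4, S100a6 and S100a1 (1419814_s_at) are higher on every TG array than on any WT array, and S100a10 is lowest on TG replicate 3.

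S100a8 and S100a9 encode the 2 calprotectin subunits, which bind calcium, zinc and manganese and signal through Tlr4 and the receptor Ager. S100a8 stood at 9.95, 9.29 and 9.86 on TG replicates 1 to 3, against 2.88, 2.88, 2.88 and 3.35 on WT replicates 1 to 4. The TG arrays lay within 0.66 of each other and the WT arrays did not rise above background. The fitted difference was 6.70 ± 0.20 (SE, limma adjusted p = 0.000194), and against a level of 4 the TG mean was at least 52.0-fold higher. The suffix s_at of this probe set marks, in Affymetrix naming, probes shared by transcripts of different genes, so some of its signal may come from another transcript.

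S100a9 had 8.94, 6.88 and 8.0 on TG replicates 1 to 3, against the same value of 2.37 on all 4 WT arrays. It varied more than S100a8 among TG mice, over 2.06 on the log2 scale. The fitted difference was 5.57 ± 0.43 (SE, limma adjusted p = 0.00403), and the TG mean was at least 15.3-fold above a level of 4. With the replicate number as a block, a fit that leaves out WT replicate 4, the call of S100a9 was lost (adjusted p = 0.116), while over all its alternatives the adjusted p ran from 0.0012 to 0.116. For both subunits TG replicate 1 was highest and TG replicate 2 lowest. Of the 1182 probe sets that passed as higher, 33 (2.79%) had that order of the TG arrays.

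The RefSeq promoter windows of both subunits, from 250 bases before to 50 after the annotated start, are shown because the pair was above background in TG arrays only and lies close together on chromosome 3. Capitals mark TATAAA, the TATA box letters, searched on both strands.
S100a8 (chr3:90668821-90669120, plus strand): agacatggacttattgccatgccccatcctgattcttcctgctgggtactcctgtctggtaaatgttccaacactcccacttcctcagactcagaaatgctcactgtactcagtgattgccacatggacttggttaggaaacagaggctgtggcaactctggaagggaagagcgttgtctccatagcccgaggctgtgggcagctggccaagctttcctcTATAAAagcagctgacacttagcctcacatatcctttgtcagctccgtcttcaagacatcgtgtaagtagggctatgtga
S100a9 (chr3:90695672-90695971, minus strand): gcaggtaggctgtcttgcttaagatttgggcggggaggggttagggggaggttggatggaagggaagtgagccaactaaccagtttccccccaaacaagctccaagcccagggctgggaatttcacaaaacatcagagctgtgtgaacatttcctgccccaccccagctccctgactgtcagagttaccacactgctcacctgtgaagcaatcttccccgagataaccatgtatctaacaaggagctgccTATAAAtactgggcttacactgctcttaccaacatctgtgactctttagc
TATAAA began 30 bases before the annotated start in S100a8 and at the first base after it in S100a9. On either strand 13.6% of the 32851 windows of that length hold these letters. Each window also holds a match to a myeloid factor motif: S100a8 has GAGGAA, the PU.1 core, on the opposite strand at 170 and 36 bases before the start (28.3% of windows hold it on either strand). S100a9 has TTGCNNAA, a C/EBP motif, at 236 bases before the start (10.8% of windows). A match of letters is not a measured binding site.

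Some neutrophil genes were higher on TG arrays, as the calprotectin subunits were. Of 16 neutrophil markers, 13 had a probe set of their own and 6 could be tested, of which 5 rose and 0 fell; over all tested genes 8.11% passed as higher and 2.56% as lower. Ctsg and Chil3, 2 of the 5, were tested only through their TG values and so had to differ, which leaves 3 of 4. Of these 3, Mpo and Prtn3 were above 4 on only 1 WT array, replicate 4 (6.95 and 5.30), so they too passed the filter only with TG arrays. Elane stood at 4.17 on WT replicates 1 to 3, close to the level of 4. The 13 averaged 6.17 to 6.83 on TG arrays and 2.68 to 3.35 on WT arrays, and 4 to 6 of them were at or under 4 on each TG array, against 9 to 11 on each WT array. The granule protease genes Elane and Prtn3 rose by 7.54 ± 0.41 and 7.85 ± 0.47, and against a level of 4 the granule protease gene Ctsg was at least 105-fold and the chitinase-like gene Chil3 at least 11.9-fold higher. The receptor gene Csf3r did not pass (1.05 ± 0.35 SE, limma adjusted p = 0.108), and Mmp9 and Cxcr2, genes of mature neutrophils, stood between 2.17 and 2.32 on all arrays. Among TG mice Elane and Prtn3 were highest on TG replicate 3 and lowest on TG replicate 1, unlike S100a8 and S100a9. The secondary granule genes of the list, Ngp, Camp, Ltf and Lcn2, were named after their values were seen, and were not tested. Ngp was at 7.68, 2.34 and 5.80 on TG replicates 1 to 3 and Camp at 6.67, 2.91 and 3.08, against 2.17 to 2.18 on WT arrays. Ltf was at 5.15, 2.41 and 2.30 on TG arrays, against 2.17 to 2.29 on WT arrays. Lcn2 was even among TG mice and close to the level of 4, at 4.0, 4.01 and 3.91, against 2.17 to 2.22 on WT arrays. In these bulk samples more cells of a type and more RNA per cell cannot be told apart, and the part of these cells in the S100 differences was not tested.

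S100a4 encodes a partner of non-muscle myosin known from motile and memory-type leukocytes, and S100a6 encodes calcyclin, a partner of annexins and of Cacybp. S100a4 stood at 9.88, 10.61 and 12.06 on TG replicates 1 to 3, against 6.16, 6.12, 7.06 and 8.31 on WT replicates 1 to 4. The groups did not overlap, and in both groups the arrays spread over about as much, 2.18 in TG and 2.19 in WT. The difference was 3.94 ± 0.70 (SE, limma adjusted p = 0.0261), a 15.4-fold rise. The call was lost in 8 of 19 alternatives. Among them were the fits without TG replicate 2 (adjusted p = 0.0922) and without WT replicate 1, 2 or 3 (0.0661, 0.0776 and 0.0681). It was also lost with no filter (0.0996), with the replicate block (0.103) and at a threshold of 0.01. Over all alternatives the adjusted p ran from 0.00531 to 0.103.

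S100a6 had 8.74, 9.51 and 10.90 on TG replicates 1 to 3, against 6.93, 5.98, 7.70 and 7.73 on WT replicates 1 to 4. Every TG array was above every WT array, by at least 1.01. The difference was 2.63 ± 0.62 (SE, limma adjusted p = 0.0487), a 6.21-fold rise close to the threshold. It lost its call in 13 of 19 alternatives, among them each array left out in turn except TG replicate 1, with adjusted p from 0.0107 to 0.165 and a difference of 2.04 to 3.26. Both genes were highest on TG replicate 3 and lowest on TG replicate 1, an order shared by 747 of the 1182 probe sets that passed as higher (63.2%).

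In WT mice both genes were higher on replicates 3 and 4, with means of 7.68 for S100a4 and 7.71 for S100a6, than on replicates 1 and 2, at 6.14 and 6.46. These are the arrays that differ in Xist. With the Xist level as a covariate the differences were 4.70 for S100a4 (limma adjusted p = 0.0521) and 3.26 for S100a6 (adjusted p = 0.0817), both larger than without it and neither passing. The mean of monocyte and macrophage markers was also higher on WT replicates 3 and 4, though single markers differed in this. The 8 markers with a probe set of their own, of 10, averaged 5.29, 5.77 and 6.20 on TG replicates 1 to 3 and 3.72, 3.88, 4.41 and 5.22 on WT replicates 1 to 4, and 3 of the 8 were at or under 4 on each TG array, against 4 or 5 on each WT array. Of the 5 tested, 2 passed as higher, against 8.11% of all tested genes, and the count ran from 0 to 3 over the alternatives. Cd68, a lysosomal protein gene of macrophages, rose by 2.63 ± 0.47, the 1 call among the 4 genes above 4 on a WT array. The chemokine receptor gene Ccr2, tested only through its TG values, was at least 2.11-fold higher. Csf1r, the receptor gene for macrophage growth factor, did not pass (2.70 ± 0.96, limma adjusted p = 0.123), at 6.76, 7.32 and 8.31 on TG arrays, against 3.33, 3.44, 5.19 and 7.09 on WT arrays. The macrophage surface gene Adgre1 did not pass either (1.31, adjusted p = 0.0924). The part of these cells in the differences of S100a4 and S100a6 was not tested.

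The promoter windows of S100a4 and S100a6 are shown because both genes rose together while only 1 has a TATA box match. Capitals again mark TATAAA.
S100a4 (chr3:90603520-90603819, plus strand): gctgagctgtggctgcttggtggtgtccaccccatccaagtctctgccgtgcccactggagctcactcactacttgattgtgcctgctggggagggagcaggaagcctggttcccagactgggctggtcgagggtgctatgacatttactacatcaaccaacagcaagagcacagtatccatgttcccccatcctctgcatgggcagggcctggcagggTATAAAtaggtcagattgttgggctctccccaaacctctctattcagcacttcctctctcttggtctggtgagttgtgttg
S100a6 (chr3:90612644-90612943, plus strand): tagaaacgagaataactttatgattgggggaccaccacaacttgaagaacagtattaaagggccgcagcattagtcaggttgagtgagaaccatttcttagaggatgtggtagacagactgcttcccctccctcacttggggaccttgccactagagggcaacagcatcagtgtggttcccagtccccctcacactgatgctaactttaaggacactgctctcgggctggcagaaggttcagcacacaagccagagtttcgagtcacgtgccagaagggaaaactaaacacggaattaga
In S100a4 the letters began 31 bases before the annotated start. A match on the gene's strand whose first base lies 20 to 35 bases before the start occurs in 1.84% of the windows, and S100a8 and S100a4 are the members with one. S100a4 also has GAGGAA on the opposite strand, 20 bases after the start. The S100a6 window held none of the 4 motifs searched, the fourth being the AP-1 letters TGANTCA.

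S100a1 is best known from heart and skeletal muscle, where it acts on calcium handling, and its 2 probe sets disagreed. Probe set 1419814_s_at stood at 7.31, 7.49 and 7.99 on TG replicates 1 to 3, against 4.65, 5.84, 5.47 and 5.45 on WT replicates 1 to 4. The groups did not overlap, and the difference was 2.25 ± 0.30 (SE, limma adjusted p = 0.0156), a 4.75-fold rise. Probe set 1417421_at was at 2.23, 2.33 and 2.47 on TG arrays and at the lowest value of 2.17 on all WT arrays, so it was not tested and shows no level above background. The annotation gives no accession for the brighter probe set, and its s_at suffix again marks shared probes, so the rise belongs to that probe set and its assignment to S100a1 is uncertain. Its call was lost in 6 of 19 alternatives: with the Xist covariate (adjusted p = 0.0594), without TG replicate 2 (0.0716), without TG replicate 3 and WT replicate 4 (0.0708), with no filter (0.0635), with the replicate block (0.132) and at a threshold of 0.01. Over all alternatives the adjusted p ran from 0.00263 to 0.132.

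S100a13, which takes part in the export of FGF1 and interleukin 1 alpha, starts beside S100a1 on the other strand. The windows of the 2 genes share 204 bases (chr3:90514281-90514484), and the S100a1 window is shown for both; it has no TATAAA.
S100a1 (chr3:90514281-90514580, minus strand): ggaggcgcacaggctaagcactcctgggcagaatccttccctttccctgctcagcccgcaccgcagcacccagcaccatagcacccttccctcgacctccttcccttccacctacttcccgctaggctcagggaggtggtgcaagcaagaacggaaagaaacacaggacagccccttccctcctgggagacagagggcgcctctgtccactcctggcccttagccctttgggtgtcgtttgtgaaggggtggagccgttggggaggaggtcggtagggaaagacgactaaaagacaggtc
S100a13 was at 8.80, 8.93 and 8.90 on TG replicates 1 to 3, against 8.28, 8.35, 8.68 and 8.71 on WT replicates 1 to 4. The TG arrays lay above all WT arrays, the closest by 0.09. The difference of 0.37 ± 0.13 did not pass (SE, limma adjusted p = 0.114). It passed with array weights (0.42, adjusted p = 0.0294) and with the Xist covariate (0.56, adjusted p = 0.0417), with adjusted p up to 0.29 over its alternatives. Like S100a4 and S100a6 it was higher on WT replicates 3 and 4, at a mean of 8.70, than on replicates 1 and 2, at 8.31.

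S100a10 encodes the annexin A2 partner p11, an S100 protein that has lost calcium binding, and its 3 probe sets did not pass. The brightest, 1416762_at, was at 12.18, 12.28 and 11.61 on TG replicates 1 to 3, against 12.26, 12.20, 12.44 and 12.31 on WT replicates 1 to 4. The groups overlapped (-0.28 ± 0.16 SE, limma adjusted p = 0.29). Probe set 1439348_at had 8.48, 8.34 and 6.31 on TG arrays, against 8.53, 8.49, 8.5 and 8.52 on WT arrays (-0.80 ± 0.51, limma adjusted p = 0.322). There all TG arrays lay under all WT arrays. Probe set 1456642_x_at had 12.07, 12.07 and 11.44 on TG arrays, against 11.98, 12.02, 12.21 and 12.44 on WT arrays (-0.30 ± 0.19, limma adjusted p = 0.321). All 3 were lowest on TG replicate 3, and without that array the differences were -0.07, -0.10 and -0.09. TG replicate 3 also had the lowest mean of B cell markers, 12.94 against 13.39 and 13.41 on TG replicates 1 and 2, and the highest mean of T cell markers, 8.44 against 3.15 and 3.36; their part in the S100a10 values was not tested.

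**Figure D2:**
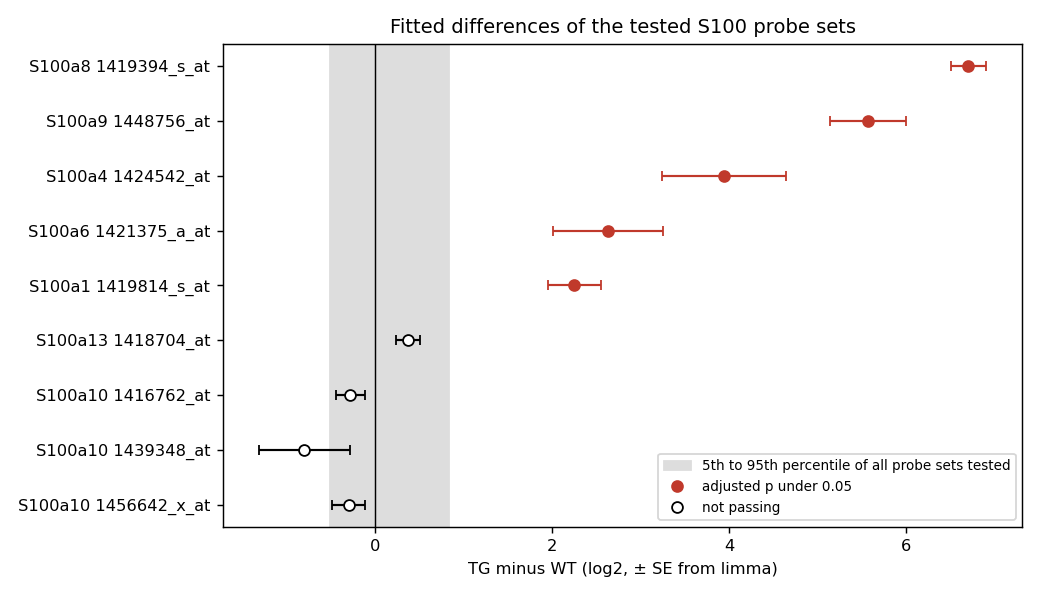
TG minus WT (log2, horizontal axis) with its SE from limma for the 9 tested S100 probe sets, filled red where the adjusted p was under 0.05, over a grey band from the 5th to the 95th percentile of all tested probe sets (-0.51 to 0.83). The 5 red points lie between 2.25 and 6.70, and of the open points only S100a10 1439348_at lies outside the band.

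Annexins, the main binding partners of S100 proteins, rose in part. Of 12 annexin genes 11 had a probe set of their own and 8 were tested, of which 4 rose, 0 fell and 4 did not pass, with a median difference of 0.61. Without Anxa3, tested only through its TG values, 3 of 7 rose. Over all genes by their brightest probe set 8.11% passed as higher, and their median was 0.00. Anxa2, the partner of S100a10, was at 9.0, 9.41 and 10.83 on TG arrays, against 7.71, 7.45, 8.13 and 8.24 on WT arrays, and rose by 1.86 ± 0.44 (SE, limma adjusted p = 0.0493). Anxa2 rose, while the S100a10 probe sets did not pass. Anxa1, a regulator of inflammation, rose by 1.29 ± 0.26, and Anxa6 rose by 0.48 ± 0.10, though 2 of its 3 other tested probe sets had the opposite sign. Anxa3, abundant in neutrophils, was not above 4 on any WT array and was at least 11-fold higher. Anxa5 did not pass (0.33 ± 0.12, limma adjusted p = 0.123), and neither did Anxa7 (0.17, adjusted p = 0.174). The annexin count ran from 0 to 6 over the alternatives.

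Other S100 partners showed no called difference. Of 14 genes, 7 were tested, 0 passed limma's adjusted threshold and 0 had an unadjusted p under 0.05, with a median of -0.04. The smallest p belonged to Sugt1, a co-chaperone gene (0.11, limma adjusted p = 0.226), and then to Plaur, the urokinase receptor gene (-0.55, adjusted p = 0.41). The others include Myh9, the myosin partner of S100a4 (-0.04), Cacybp, the partner of S100a6 (0.13), and Ahnak, a scaffold bound by S100a10 and annexin A2 (-0.37). Of 8 receptor genes 7 were tested and 2 rose, while 8.11% of all tested genes passed as higher. The 2 were Ly96, the MD-2 subunit that serves Tlr4, by 1.01 ± 0.21, and Bsg, a surface receptor bound by S100A9, by 0.41 ± 0.08. The receptor count ran from 0 to 2 over the alternatives. Tlr4 (-0.17) and Ager (0.07) did not pass, nor did Myd88 (0.26, limma adjusted p = 0.107) and Nptn (0.33, adjusted p = 0.15). For the NADPH oxidase, to which calprotectin delivers arachidonic acid, 5 of 6 genes were tested and 0 passed, with 2 at an unadjusted p under 0.05: Cyba (-0.14) and Cybb (0.24), both at limma adjusted p of 0.123 to 0.126. All 5 were above background on every array of both groups.

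Among transcription factors of myeloid genes that include S100a8 and S100a9, 5 of 6 were tested. Cebpa and Cebpd passed as higher, but were tested only through their TG values and so had to differ. Of the 3 others, 0 passed limma's adjusted threshold and 1, Cebpb, had an unadjusted p under 0.05, while 8.11% of all tested genes passed as higher. Cebpa, a factor of granulocyte commitment, was at 4.61, 6.22 and 7.20 on TG arrays and not above 2.24 on any WT array, so it was at least 4.03-fold higher. Cebpd was at least 2.30-fold higher on the same terms. Cebpb did not pass (0.49 ± 0.14, limma adjusted p = 0.0749), and neither did Spi1, which encodes PU.1 (-0.14), or Stat3 (0.13, adjusted p = 0.411). Cebpa was lowest on TG replicate 1, the array where S100a8 and S100a9 were highest.

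**Figure D3:**
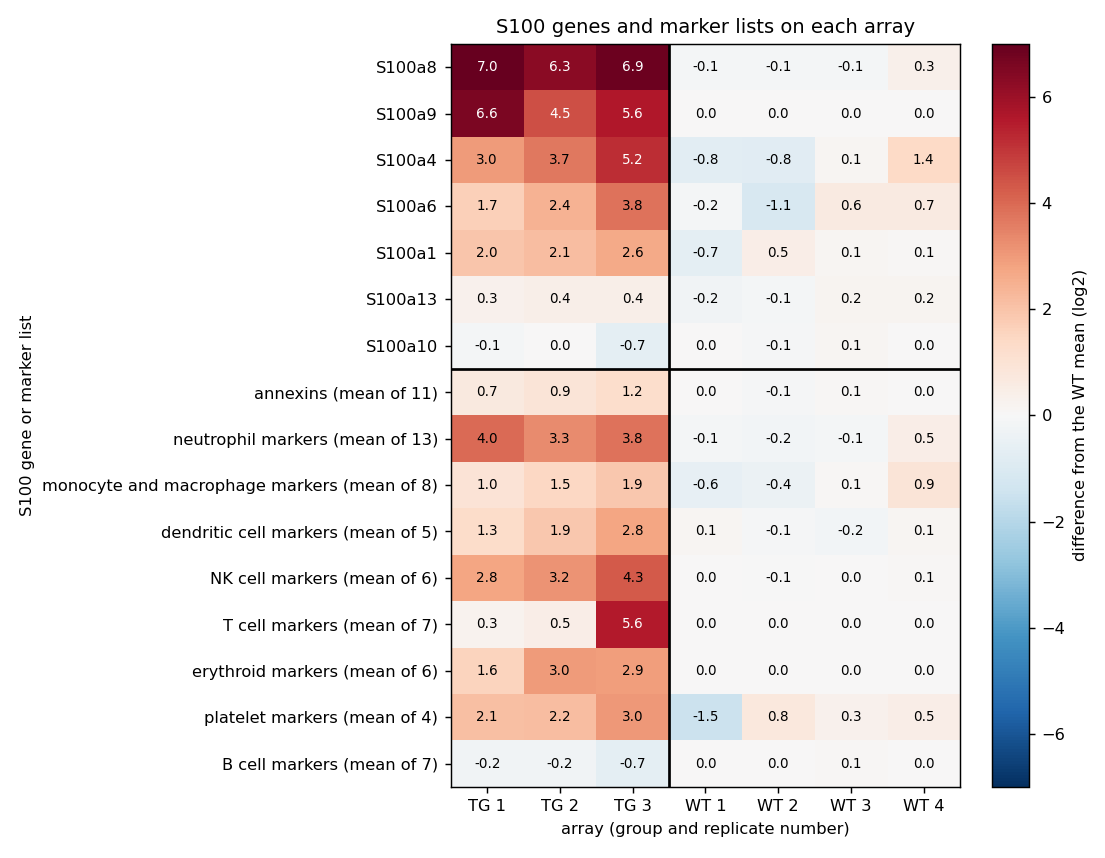
Difference of each array from the WT mean (log2, colour and printed value) for the brightest probe set of each S100 gene (top) and for the mean of the genes in each list (bottom), with the 3 TG arrays left of the 4 WT arrays. S100a8, S100a9 and the mean of the neutrophil markers are highest on TG replicate 1. Mpo, Elane, Prtn3 and Ctsg within that mean are highest on TG replicate 3. So are S100a4, S100a6, S100a1 and the means of the annexins and of the monocyte, dendritic, NK, T cell and platelet markers.

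Markers of further cell types are given as values beside the S100 genes. Many were at or under 4 on all WT arrays, so their tests were fixed by the filter, and the genes above 4 on some WT array are given apart. Over all tested genes 8.11% passed as higher. Natural killer cell markers averaged 5.96 to 7.46 on TG arrays and 3.13 to 3.24 on WT arrays. Klrd1, Gzma, Nkg7 and Klrk1, receptor and granule genes, passed through TG values alone, at least 11.5-fold, 12.0-fold, 9.48-fold and 3.78-fold above a level of 4, and Prf1, the other one tested, did not pass (0.80, limma adjusted p = 0.0929). Dendritic cell markers averaged 5.66 to 7.14 on TG arrays and 4.18 to 4.52 on WT arrays. Of the 3 above 4 on a WT array 2 rose, Itgax by 3.32 and Flt3 by 1.86, and Zbtb46 did not pass (1.07, adjusted p = 0.0992), while Xcr1 passed through TG values alone, at least 2.96-fold.

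Erythroid markers averaged 3.90 to 5.32 on TG arrays and 2.30 to 2.36 on WT arrays, and all 3 tested were tested through TG values alone: Klf1 at least 5.14-fold, Car1 at least 26.9-fold and Slc4a1 at least 4.96-fold. The other 3 of the 6 measured were at or under 4 on every array of both groups. Platelet markers averaged 10.42 to 11.33 on TG arrays and 6.80 to 9.07 on WT arrays, and all 4 were above 4 on every array. Of these Pf4, a platelet chemokine gene, rose by 3.01 and Gp9 by 1.85, while Ppbp (2.21, limma adjusted p = 0.0645) and Itga2b (2.65, adjusted p = 0.084) did not pass. T cell markers averaged 3.15 to 8.44 on TG arrays and 2.84 to 2.90 on WT arrays, and 0 of 2 passed limma's adjusted threshold, both with an unadjusted p under 0.05. Cd3g was at 4.02, 4.55 and 9.86 on TG arrays and 2.17 on WT arrays (adjusted p = 0.112), and Cd8a differed by 0.86 (adjusted p = 0.104). The part of these cells in any S100 difference was not tested.

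The further S100 genes that could be measured were at background. Of 8 further S100 genes, S100a3, S100a5, S100a14, S100a16, S100b and S100g had a probe set of their own, and each was at the same value on all 7 arrays, 3.05 for S100a16 and 2.17 for the others. The 5 measured genes of fused-type S100 proteins, which build the skin barrier, were at 2.17 throughout. Along chromosome 3, 80 protein-coding genes lie from 5 named genes before S100a1 to 5 after S100a10 in RefSeq order, among them the keratinocyte envelope genes, and 54 had a probe set of their own. Only 11 of these were tested, 7 of them S100a genes. The 4 others, Ints3, Ilf2, Snapin and Chtop, lie just before S100a1, and their differences lay between -0.15 and 0.22; 0 passed limma's adjusted threshold and 2 had an unadjusted p under 0.05. S100a4, S100a6, S100a8 and S100a9, which rose, lie in order along the chromosome with S100a5 between S100a4 and S100a6, and S100a5 stayed at 2.17.

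**Figure D4:**
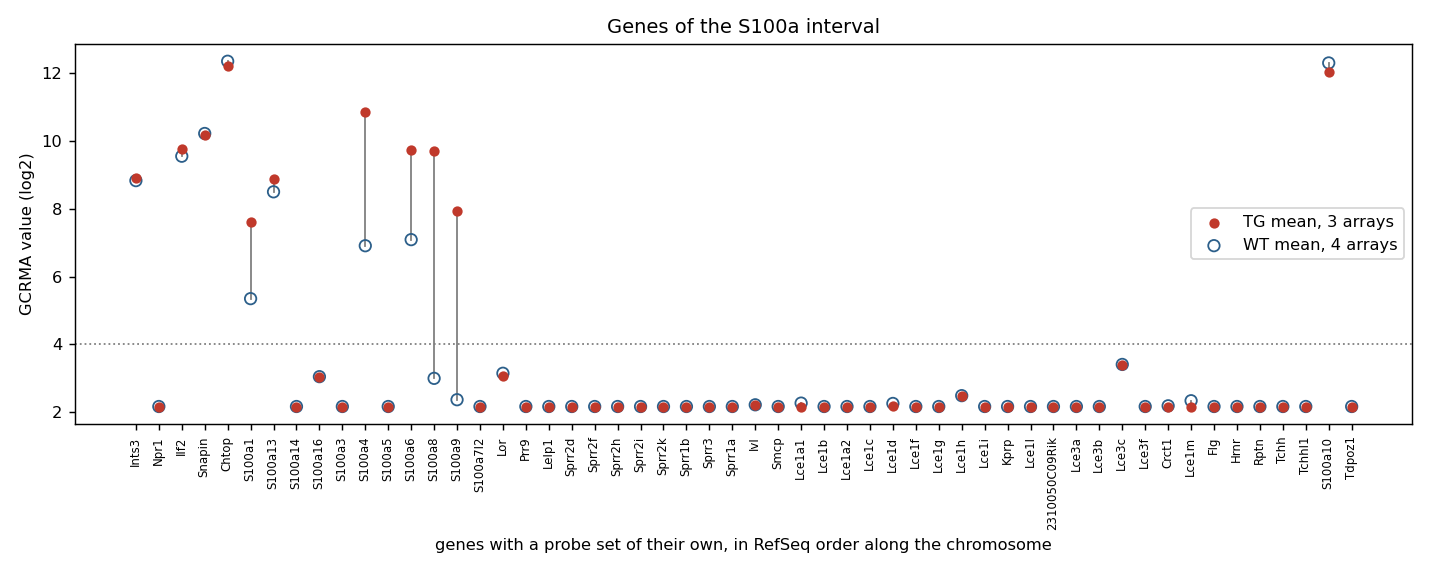
Mean GCRMA value (log2, vertical axis) on the 3 TG arrays (filled red) and the 4 WT arrays (open blue) for the 54 genes of the S100a interval with a probe set of their own, in RefSeq order, with a grey line joining the 2 means and the level of 4 dotted. The 5 S100a genes that rose lie apart in the groups, while the detected genes before them nearly coincide and the genes from S100a7l2 to Tchhl1, mostly of the skin barrier, are under 4 in both groups. Heights of different genes are not comparable.

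Each S100 gene was also set beside the 9515 other tested genes by the root mean square difference of their profiles over the 7 arrays, each centred on its own mean, as a description. The closest to S100a8 were Ear3, an eosinophil ribonuclease gene (0.59), Elane (0.63) and S100a9 (0.69). The closest to S100a9 were Chil3 (0.52), S100a8 (0.69) and Emb (0.84). For S100a4 they were Ifitm3, an interferon-inducible antiviral gene (0.30), Emilin2 (0.39) and Pxylp1 (0.43), and for S100a6 Tmem176b (0.31), Ifitm6 (0.34) and Tbc1d8 (0.35). S100a4 and S100a6 were each other's nearest member at 0.77, with 41 other genes nearer to S100a4 and 161 nearer to S100a6. For S100a1 the closest were Gabarapl1, an autophagy gene (0.19), Dstn (0.20) and Id2 (0.21). For S100a13 they were Gna12 (0.05), Ndufaf5 (0.07) and Rassf4 (0.07), and for S100a10 Foxj2 (0.04), Trim3 (0.05) and Phf19 (0.05); distances are small for genes that vary little.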

How the data were processed

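The deposited log2 values run from 2.17 to 16.36. Per the submitters' processing notes, GCRMA was the tool used, with no version stated; it models background by probe sequence before normalizing and summarising. Array medians were 2.97 to 3.41; the values are not centred. Scanner files and scan dates were not used here, so scan batches were not tested. Among the 45101 probe sets are 64 controls; 34945 name 1 gene, 932 several and 9160 none. For 34741 of those naming 1 gene the symbol was looked up in RefSeq (GRCm38.p6) by Entrez identifier, and 0 changed. The genome build behind the probe sets is not known here, and printed coordinates belong to the RefSeq promoter table alone, which holds 7 of the 8 members.

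Groups come from the sample titles, and each array is taken as 1 mouse. The labels do not say whether mice share litters or days, so p-values measure the spread between these samples. All non-control probe sets above 4 on at least 3 arrays were fitted with limma 3.58.1 in R 4.3.3 (lmFit, eBayes with trend, two-sided, Benjamini-Hochberg adjustment, threshold 0.05), a procedure tested on simulated data. Where a gene has several probe sets, the brightest on average stands for it. A gene at or under 4 on every WT array has a bound only, the TG mean against 4. Members, gene lists and tests were chosen with earlier results of these data known. In each list up to 4 passing genes and up to 2 others, of smallest p, are named. Myh9, Cacybp, Ahnak, Tlr4, Ager, Spi1, Mmp9 and Cxcr2 were added for their known roles, after their values were seen. Mpo and Lyz2 were added for their values on single arrays. Alternatives changed the filter, normalization, variance model, weights, background level, covariate, block, arrays and threshold.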

Additional observations from a re-analysis of the deposited data

How the results depend on the processing

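Among the tested S100 probe sets 5 passed, including S100a8 and S100a9, which were tested only through their TG values. Only these 2 passed with no filter on low values, without TG replicate 2 and at an adjusted p under 0.01. With the Xist covariate 3 passed, S100a8, S100a9 and S100a13. Without both TG replicate 3 and WT replicate 4, 3 passed, S100a8, S100a9 and S100a4. With single arrays left out 2 to 5 passed, and 3 without WT replicate 1, 2 or 3. In the lists of S100 relatives, partners, receptors and regulators 8 genes passed, of which Anxa3, Cebpa and Cebpd were tested only through their TG values. With no filter 2 of the list genes passed, with the Xist covariate 4 and without both those arrays 2. At an adjusted p under 0.01 the 2 left were Anxa3 and Cebpd. With single arrays left out 2 to 9 passed. Over all probe sets 1949 passed, against 199 with no filter, 5945 with array weights (whose estimation stopped before it converged), 277 with the Xist covariate, 687 without both arrays, 142 at 0.01 and 138 to 2149 with single arrays left out, the fewest without TG replicate 2 and at most 671 without any 1 WT array. Deviations of same-numbered TG and WT arrays from their group means had correlations of -0.043, -0.142 and -0.287. With so few arrays these values cannot tell whether the mice were paired. The fit with replicate number as a block left out WT replicate 4. In it 1 S100 probe set, 0 list genes and 4 probe sets in all passed. S100a8 passed under all 19 alternatives. All tested S100 probe sets kept their sign in every alternative, except S100a10 1456642_x_at, which ran from -0.40 to -0.09 with single arrays left out and stood at 0.0043 without TG replicate 3 and WT replicate 4; the cause was not tested. Signal at or near background limits S100a8 and S100a9 to lower bounds and leaves the second S100a1 probe set with no measured level.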
